A study of Mus musculus with 18 samples.

Results

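The subject of this account is the mRNA of 9 voltage-gated sodium channel subunit genes in mouse dorsal root ganglia (DRG). The members are the genes of the deposited table whose symbol is Scn1a, Scn3a, Scn8a, Scn9a, Scn10a, Scn11a, Scn2b, Scn3b or Scn4b, so 9 of the 22021 listed genes. They were chosen by name, and all 9 passed the filter on low values. The mice carried Cre recombinase under control of the Scn10a (Nav1.8) promoter and a Rosa26fsTRAP allele, from which Cre switches on the ribosomal protein L10a fused to EGFP. They were littermates of both sexes, 8 to 12 weeks old, on a C57BL/6J background, and every group carried both alleles. Each homogenate gave 1 input library, made from a sample of the whole extract, and 1 TRAP (translating ribosome affinity purification) library, made from RNA that antibodies to GFP had pulled down. Biosamples 1 to 4 came from normal mice and biosamples 5 to 8 from paclitaxel treated mice, which gave 4 groups of 4: normal input, normal TRAP, paclitaxel input and paclitaxel TRAP. Paclitaxel stabilises microtubules, is used against cancer and often causes pain. The mice received 4 mg/kg by intraperitoneal injection 4 times, a sum of 16 mg/kg. The labels do not say whether the normal mice were those given vehicle, or how many animals made up a biosample. One of the members, Scn10a, supplies the promoter that selects the tagged cells, so its level in the pulldown is not independent of how the cells were selected.

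Voltage-gated sodium channels open on depolarisation and carry the upstroke of the action potential. Each channel is 1 large pore-forming alpha subunit, with smaller beta subunits that alter its gating, its transport to the membrane and its contacts with other proteins. Sensory neurons use alpha subunits that tetrodotoxin blocks, Nav1.1 (Scn1a), Nav1.3 (Scn3a), Nav1.6 (Scn8a) and Nav1.7 (Scn9a), and alpha subunits that resist it, Nav1.8 (Scn10a) and Nav1.9 (Scn11a). The resistant pair marks nociceptors and other small-diameter neurons. Nav1.7 is best known from people who lack it and feel no pain, Nav1.6 is the main channel of the nodes of Ranvier in myelinated axons, and Nav1.3 is chiefly an embryonic channel that is scarce in adult ganglia.

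The alpha subunit genes lie in 2 clusters on mouse chromosomes 2 and 9, apart from Scn8a on chromosome 15. In the GENCODE vM21 annotation of GRCm38, Scn3a (chr2:65457118-65567627), Scn1a (chr2:66270778-66440840) and Scn9a (chr2:66480080-66634962) all lie on the minus strand. Scn10a (chr9:119608456-119719322) and Scn11a (chr9:119753759-119825456) are neighbours on the same strand, and Scn8a is on the plus strand (chr15:100869858-101045938). The beta subunit genes Scn2b (chr9:45117782-45130070), Scn4b (chr9:45138395-45154152) and Scn3b (chr9:40269217-40291618) are on the plus strand. Genes on the opposite strand overlap Scn1a, Scn3a, Scn9a, Scn2b and Scn3b. The strand setting of the counting is not stated, so reads of these partners cannot be told apart. Scn2b shares its deposited locus with Jaml and with the long non-coding Gm10684, whose own values reached at most 14.4 and 11.8 CPM. The deposited locus of Scn9a (chr2:66440880-66634962) is wider than the model given above. It spans the antisense gene Gm13629, for which no value of its own was found.

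Promoter sequence was taken from RefSeq (GRCm38.p6), whose table held 7 of the 9 genes. Shown are the bases before the start of the 3 genes that passed in the same direction in both treatments (described below) and whose window was free of their own annotated exons over at least 200 bases. They are Scn9a, which was higher in the pulldown, and Scn1a and Scn8a, which were lower. Capitals mark each CG dinucleotide, and all lines read 5′ to 3′ on the strand of the gene.
Scn9a, chr2:66634963-66635212, minus strand: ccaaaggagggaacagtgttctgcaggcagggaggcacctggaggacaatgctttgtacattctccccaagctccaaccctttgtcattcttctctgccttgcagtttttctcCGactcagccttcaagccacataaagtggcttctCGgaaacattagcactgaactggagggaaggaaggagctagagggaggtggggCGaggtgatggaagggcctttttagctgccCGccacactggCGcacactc
Scn1a, chr2:66440841-66441087, minus strand: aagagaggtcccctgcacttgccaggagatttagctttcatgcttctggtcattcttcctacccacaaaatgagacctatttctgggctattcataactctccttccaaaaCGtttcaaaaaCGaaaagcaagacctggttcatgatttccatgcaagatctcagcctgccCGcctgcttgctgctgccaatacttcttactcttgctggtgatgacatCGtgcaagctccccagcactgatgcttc
Scn8a, chr15:100870395-100870644, plus strand: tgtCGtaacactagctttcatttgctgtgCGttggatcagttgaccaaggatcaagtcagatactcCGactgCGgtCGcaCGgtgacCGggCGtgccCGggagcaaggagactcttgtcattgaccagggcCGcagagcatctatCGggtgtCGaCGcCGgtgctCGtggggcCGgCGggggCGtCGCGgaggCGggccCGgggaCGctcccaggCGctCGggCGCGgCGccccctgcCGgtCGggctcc
The 250-base windows held 5 CG in Scn9a, 4 in Scn1a and 30 in Scn8a, the last from the upstream of 2 listed RefSeq starts. This Scn8a window lies inside the GENCODE model of the gene given above. The window of the other Scn8a start held 9 CG. The median over all 32851 promoters of this length was 6. At least as many CG as in the Scn8a window shown were found in 5.94% of them, and as in the other Scn8a window in 40.3%. The values were 55.6% for the count of Scn9a and 62.2% for that of Scn1a. The neighbours Scn9a and Scn1a, which moved in opposite directions, had similar counts.

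Libraries read the 3′ ends of transcripts, and values are reads per 1e+06 reads (CPM) over the listed genes, not divided by length, since the reads come from transcript ends. Input libraries held 4266012 to 14478021 reads and pulldowns 5972329 to 32713503, so that 3 reads corresponded to 0.0917 to 0.703 CPM. Biosample 7 was sequenced as 2 subsamples per fraction, which were averaged, and its first pulldown subsample reached 1 CPM in 8081 genes against 9715 to 13228 in the other pulldowns. With either subsample alone, the calls of TRAP against input for the subunits in paclitaxel ganglia were as reported below, except that on the scale relative to Scn10a Scn11a passed with the first subsample (−0.57, adjusted p = 0.0468). Most listed markers of satellite glia and large-fibre neurons were lower in the pulldown. Of 14 satellite glia genes 11 fell in normal and 12 in paclitaxel ganglia, and of 16 genes of large-fibre neurons 11 and 12 fell. In normal ganglia 15 of 18 Schwann and 10 of 12 fibroblast genes fell, and 1 Schwann gene rose. Fewer passed there for macrophages (3 of 12 lower) and endothelium (5 of 10 lower, 1 higher). Of all tested genes, 24.7% were lower and 5.09% higher in normal ganglia, and 23% and 4.92% in paclitaxel ganglia. Summed satellite glia markers went from 1262 to 3093 CPM in normal input to 568 to 1244 CPM in normal TRAP, and none of the 14 was at 0. The sum of 22 nociceptor markers other than sodium channels was 5228 to 7525 CPM in normal input and 8544 to 11904 CPM in normal TRAP. Of the 21 of these that were tested, 3 rose, 3 fell and 15 did not pass in normal ganglia (log2 median 0.06). In paclitaxel ganglia 8 rose and 0 fell (median 0.77). The median of all tested genes was −0.66 in normal and −0.56 in paclitaxel ganglia. In bulk libraries, fewer cells of a type and less RNA per cell cannot be told apart.

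In every library the most abundant of the 9 mRNAs was Scn9a or Scn10a. In normal input the order of mean levels was Scn9a (730 ± 218 CPM, SD, n = 4), Scn10a (666 ± 248), Scn8a (329.9 ± 88.2), Scn11a (307 ± 163), Scn4b (126 ± 25.7), Scn1a (96.6 ± 38.2), Scn2b (72.0 ± 15.0), Scn3b (28.8 ± 2.83) and Scn3a (14.3 ± 1.29). Neighbours in this order overlapped, except Scn10a and Scn8a, Scn2b and Scn3b, and Scn3b and Scn3a, whose ranges were apart. Scn9a and Scn10a each led in 2 of the 4 normal input libraries. In paclitaxel TRAP Scn10a stood above Scn9a in 4 of 4 libraries, at 1405 ± 297 against 948 ± 52.0 CPM (SD, n = 4), although the ranges overlapped. Spread between biosamples was wider in normal than in paclitaxel input for the most abundant members: the highest Scn11a library was 3.65 times the lowest in normal input and 1.40 times in paclitaxel input.

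**Figure D1:**
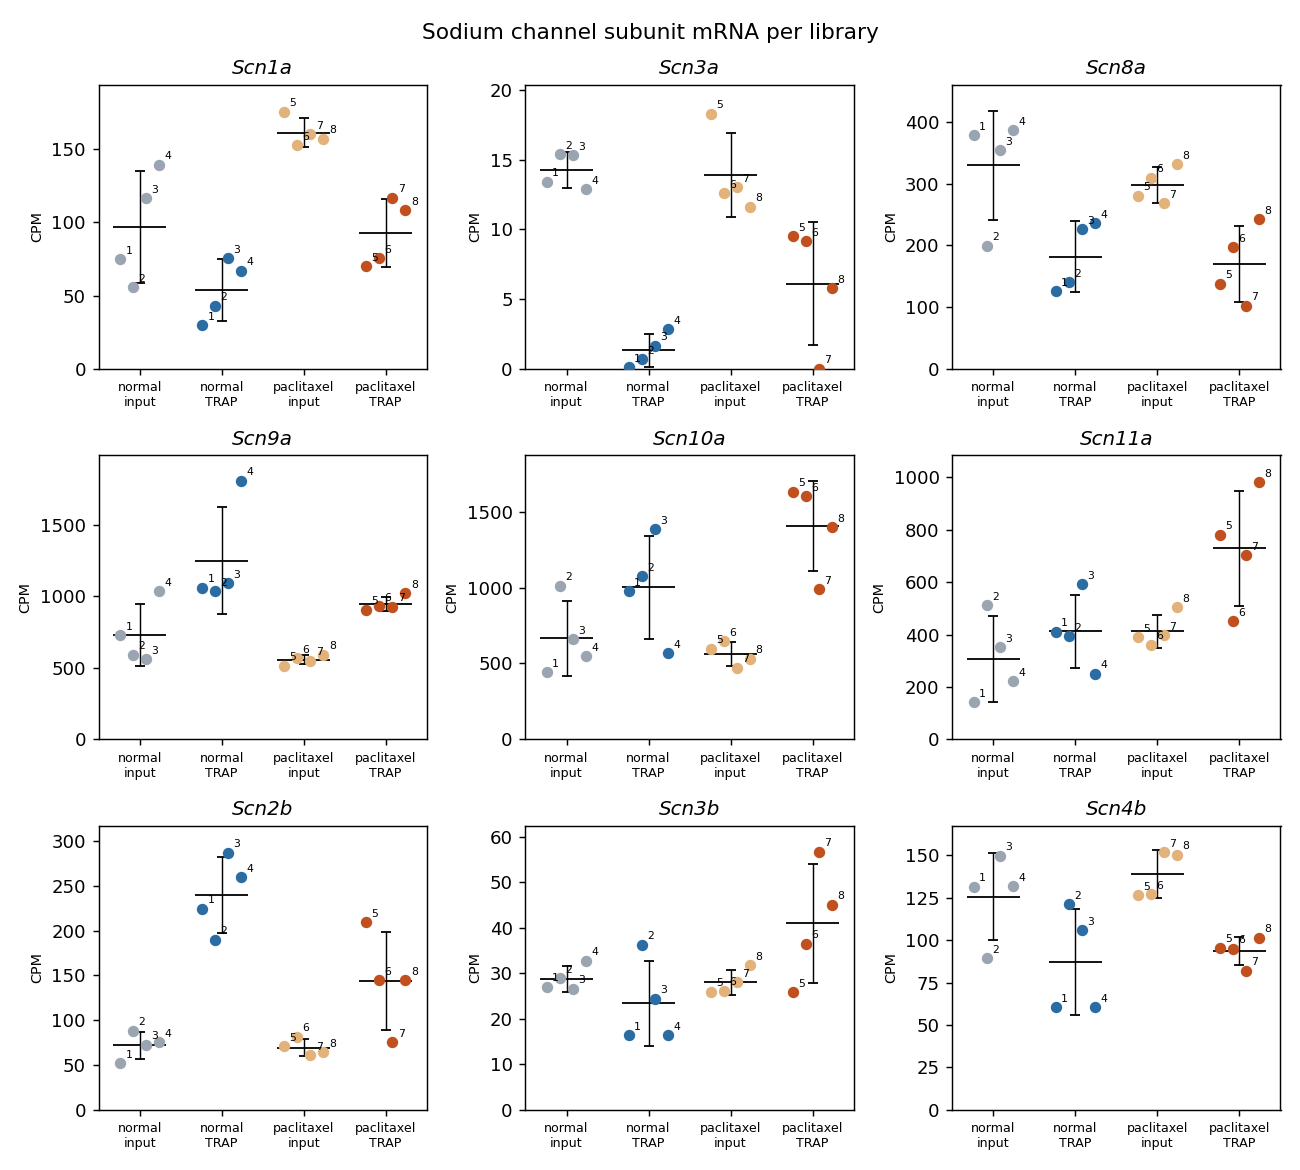
Level of each subunit mRNA in CPM (linear axes from 0) in each of the 16 pooled libraries; points are libraries numbered by biosample, and bars give the mean and SD of 4. Scn2b in normal TRAP (190 to 287 CPM) lies above every normal input library (52.0 to 88.2 CPM), and Scn3a in normal TRAP lies below 3 CPM.

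In normal ganglia 3 of the 9 subunit mRNAs were higher in the pulldown than in the input of the same homogenate, 3 were lower and 3 did not pass (limma on log2(CPM + 1), biosample as a block, Benjamini-Hochberg adjusted p under 0.05 over 14214 genes). Of all tested genes, 5.09% were called higher and 24.7% lower, and the median change was −0.66 on the log2 scale, against −0.36 for the 9 subunits. Scn2b, Scn9a and Scn10a were the genes that rose, and Scn3a, Scn8a and Scn1a those that fell.

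Among the tetrodotoxin-resistant channels, Scn10a measured 443, 1013, 659.8 and 548 CPM in the inputs of biosamples 1 to 4 and 977, 1077, 1387 and 567 CPM in their pulldowns. The pulldown was higher in 4 of 4 biosamples, but by little in biosamples 2 and 4, and the groups overlapped. The rise was 0.59 ± 0.19 (log2, SE; limma adjusted p = 0.0267). It was no longer called without biosample 1 (0.40) or biosample 3 (0.43), nor without the replicate block (adjusted p = 0.124), and its direction turned when libraries were scaled to the summed pan-neuronal markers (−0.14, adjusted p = 0.648). That list of 16 genes was itself mixed. In the pulldown 4 of them rose and 4 fell in normal ganglia (median 0.22), and 5 rose and 3 fell in paclitaxel ganglia (median 0.44). A sum weights each gene by its abundance, and which of them drove it was not tested. Scn11a measured 141, 513, 351 and 221 CPM in input and 411, 394, 592 and 250.5 CPM in TRAP. It was higher in 3 of 4 pulldowns and lower in biosample 2, whose input was the highest, and the groups overlapped. Its change of 0.52 ± 0.23 (log2, SE) did not pass (limma adjusted p = 0.0830). It passed without biosample 2 (0.82) and after scaling by median ratios (0.96, adjusted p = 0.00535). Biosample 2 had the lowest satellite glia sum of the normal inputs (1262 CPM). Its skeletal muscle sums were the highest of the normal libraries in each fraction (1977 CPM in input and 1713 CPM in TRAP). The part of its make-up in the result was not tested.

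Of the tetrodotoxin-sensitive channels, Scn9a alone was higher in the normal pulldown. Its mRNA measured 729, 593, 559 and 1038 CPM in input and 1060, 1037, 1092 and 1810 CPM in TRAP. All 4 pairs rose, by 0.54 to 0.97 on the log2 scale, and biosample 4 was the highest in both fractions. The groups nearly separated, with the lowest pulldown just under the highest input. The mean rise was 0.78 ± 0.16 (log2, SE; limma adjusted p = 0.00136), and it fell to 0.06 (adjusted p = 0.847) under pan-neuronal scaling.

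Scn8a measured 379, 199, 355 and 387 CPM in normal input and 126, 139.8, 226 and 236 CPM in TRAP, lower in 4 of 4 biosamples with overlap through biosample 2. The fall was −0.86 ± 0.21 (log2, SE; limma adjusted p = 0.00453). Scn1a, a channel found mainly in larger myelinated sensory neurons, measured 74.9, 55.6, 116 and 139 CPM in input and 29.9, 43.0, 75.5 and 67.0 CPM in TRAP. It was lower in 4 of 4 pairs, with overlapping groups, and its fall was −0.83 ± 0.25 (log2, SE; limma adjusted p = 0.0145). Both falls were close to the median change of all genes, from which Scn8a differed by −0.21 and Scn1a by −0.18, and neither passed under median-ratio scaling (adjusted p = 0.144 and 0.249). Scn1a was also not called without biosample 1 (−0.68) or 4 (−0.76) or without the replicate block (adjusted p = 0.0580), nor was Scn8a without biosample 1 (−0.62). The large-fibre markers moved with them, at 1362 to 2119 CPM in normal input and 782 to 1367 CPM in TRAP, and their part in the result was not tested.

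Scn3a was scarce in input, at 13.4, 15.4, 15.3 and 12.9 CPM, and lower still in TRAP, at 0.10, 0.67, 1.65 and 2.85 CPM. The groups did not overlap, which was true of 23% of all tested genes. The change was −2.87 ± 0.68 (log2, SE; limma adjusted p = 0.00362), −2.22 beyond the median of all genes. On the recovered reads, edgeR gave −3.56 and did not call it (adjusted p = 0.0911). The lowest pulldown lay under the 3-read floor of its library.

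Among the beta subunits, Scn2b, which is joined to the alpha subunit by a disulfide bond, showed the largest rise of the 9 genes. It measured 52.0, 88.2, 72.7 and 75.3 CPM in normal input and 224, 189.6, 287 and 259 CPM in TRAP. The groups were apart, and each pulldown was above every input. The rise was 1.73 ± 0.24 (log2, SE; limma adjusted p = 2.11e-05), and it was called under each of the 22 alternatives tried, at 1.01 to 2.26. Scn4b, the other disulfide-linked beta subunit, measured 131, 89.2, 149.7 and 132 CPM in input and 60.5, 121, 106 and 60.5 CPM in TRAP, lower in 3 of 4 biosamples and higher in biosample 2. Its change was −0.57 ± 0.25 (log2, SE; limma adjusted p = 0.0855). Without biosample 2 it passed (−0.91, adjusted p = 0.0107). Scn3b, which binds the alpha subunit without a disulfide bond, measured 26.6 to 32.8 CPM in normal input and 16.4 to 36.3 CPM in TRAP, with a change of −0.36 ± 0.37 (log2, SE; limma adjusted p = 0.470).

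In paclitaxel ganglia 4 subunit mRNAs were higher in the pulldown, 2 were lower and 3 did not pass, against 4.92% of all genes called higher and 23% lower. The median change was 0.49 for the 9 subunits and −0.56 for all genes. Scn10a measured 598, 647, 472 and 533 CPM in the inputs of biosamples 5 to 8 and 1633, 1601, 989 and 1398 CPM in their pulldowns. Here the groups were apart, the 4 pairs lay between 1.07 and 1.45 on the log2 scale, and the mean rise was 1.30 ± 0.19 (SE; limma adjusted p = 6.81e-05). Scn11a measured 389.9, 361, 397 and 504 CPM in input and 781, 450.0, 703 and 981 CPM in TRAP. It was higher in 4 of 4 pairs with overlap through biosamples 6 and 8, and rose by 0.77 ± 0.23 (log2, SE; limma adjusted p = 0.0147), a call lost without biosample 5, 7 or 8 (0.70 to 0.76), without the replicate block (adjusted p = 0.0915) and under quantile normalization (0.64, adjusted p = 0.0538).

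Scn9a measured 516, 567, 550.4 and 593 CPM in paclitaxel input and 908, 931, 927 and 1024 CPM in TRAP. The 4 pairs lay between 0.71 and 0.81 on the log2 scale, the groups were apart, and the mean of 0.77 ± 0.16 (SE; limma adjusted p = 0.00193) was close to that in normal ganglia. Scn2b measured 70.8, 81.6, 61.2 and 64.4 CPM in input and 209, 145, 75.5 and 145 CPM in TRAP. It was higher in 4 of 4 pairs, least in biosample 7, whose pulldown lay within the input range. The rise was 0.96 ± 0.24 (log2, SE; limma adjusted p = 0.00613) and was no longer called without biosample 5 (0.76, adjusted p = 0.0678). Under pan-neuronal scaling Scn9a (0.33), Scn11a (0.34) and Scn2b (0.53) did not pass in paclitaxel ganglia, while Scn10a did.

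Scn8a and Scn1a fell in the paclitaxel pulldowns as in the normal ones. Scn8a measured 281, 309.8, 268 and 332 CPM in input and 138, 197, 102 and 242 CPM in TRAP, and Scn1a 176, 153, 160.1 and 157 CPM against 70.1, 75.6, 117 and 109 CPM. For both genes the groups were apart and 4 of 4 pairs fell, by −0.88 ± 0.21 and −0.83 ± 0.25 (log2, SE; limma adjusted p = 0.00466 and 0.0157). Neither passed under median-ratio scaling (adjusted p = 0.0528 and 0.136), and Scn1a was not called without biosample 5 (−0.66) or biosample 6 (−0.77), nor without the replicate block (adjusted p = 0.0620).

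Scn3a measured 18.3, 12.6, 13.0 and 11.6 CPM in paclitaxel input and 9.50, 9.14, 0 and 5.77 CPM in TRAP. Biosample 7, at 0 in both subsamples, stood below the others, the groups did not overlap, and the change of −1.50 ± 0.68 (log2, SE) did not pass (limma adjusted p = 0.102). Without biosample 7 it was −0.73 (adjusted p = 0.511). Scn4b measured 126 to 152 CPM in input and 82.0 to 101 CPM in TRAP, a change of −0.57 ± 0.25 (log2, SE; limma adjusted p = 0.0937). Scn3b measured 26.0 to 31.8 CPM in input and 25.9 to 56.7 CPM in TRAP, a change of 0.49 ± 0.37 (log2, SE; limma adjusted p = 0.337). Input and TRAP libraries were apart for 6 of the 9 subunits here and for 2 in normal ganglia, against 31.3% and 23% of all genes.

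**Figure D2:**
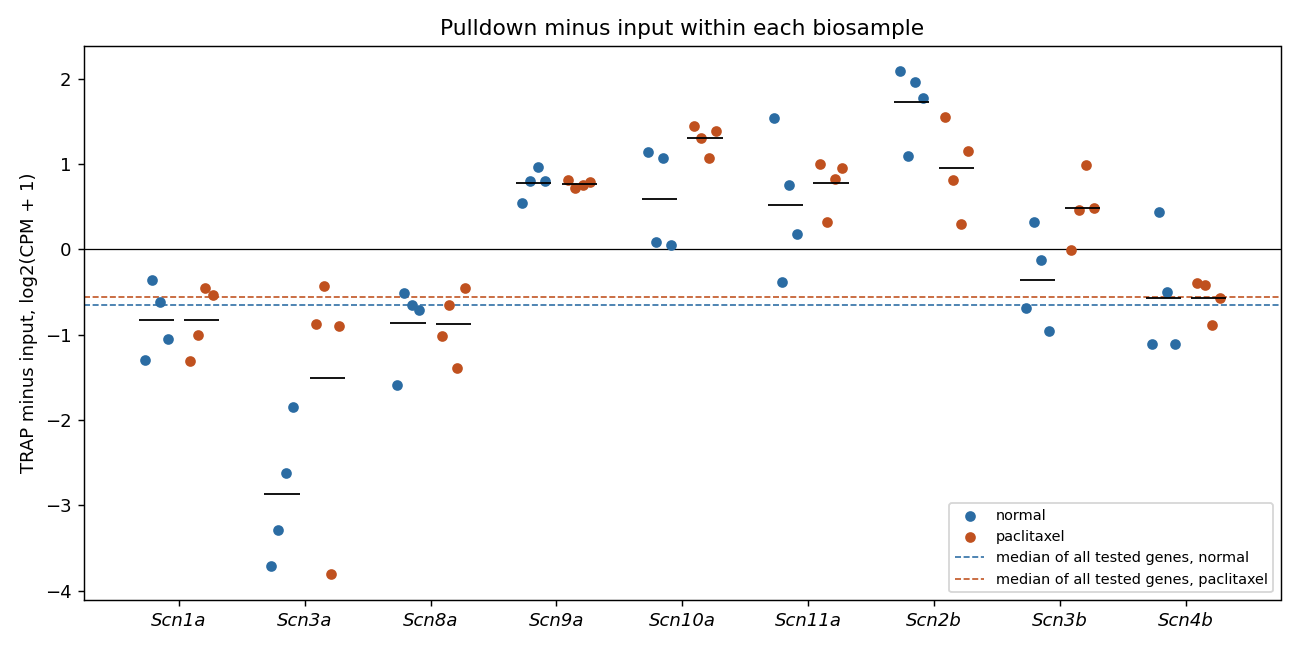
TRAP minus input in log2(CPM + 1) for each subunit and biosample; points are biosamples, short bars the mean of 4, and dashed lines the median of all tested genes per treatment (−0.66 and −0.56). Scn9a, Scn10a and Scn2b lie above 0 in all 8 biosamples and Scn1a, Scn3a and Scn8a below 0 in all 8.

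The pulldown difference itself was not called as changed by paclitaxel for any subunit (0 of 9; limma interaction, 0.19% of all genes called). At an unadjusted p under 0.05 there were 2, Scn10a with a shift of 0.72 (95% interval 0.15 to 1.28, adjusted p = 0.310) and Scn2b with −0.77 (−1.48 to −0.07, adjusted p = 0.388). With edgeR on the recovered reads, 0 subunits were called. The largest estimates were those of Scn3a (1.37, −0.63 to 3.36) and Scn3b (0.85, −0.24 to 1.93), with intervals that held 0. For Scn9a the shift was −0.01, with an interval of −0.49 to 0.47, and for Scn1a 0.01, with −0.71 to 0.72.

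To set the subunits beside Nav1.8 within a library, the log2(CPM + 1) value of Scn10a in the same library was subtracted from each gene. This cancels library scaling for genes well above 1 CPM. Scn3a was at 0.10 to 2.85 CPM in normal TRAP, and its normal value on this scale ran from −4.51 to −2.21 over 17 alternatives. On this scale 4 subunits were lower in the normal pulldown (Scn3a −3.46, Scn8a −1.45, Scn1a −1.42 and Scn4b −1.16; limma adjusted p from 0.000347 to 0.00568), where 50.5% of all genes were lower. The call of Scn4b was lost without biosample 1 (−0.79, adjusted p = 0.0652) and without biosample 3 (−1.02, adjusted p = 0.0518). Scn2b was higher, at 1.14 ± 0.31 (SE; adjusted p = 0.00309), where 1.17% of all genes were higher. Scn9a (0.19, 95% interval −0.36 to 0.74) and Scn11a (−0.06, −0.60 to 0.47) were not distinguished from Scn10a. In paclitaxel ganglia Scn3a, Scn8a, Scn1a and Scn4b were again lower, at −2.81, −2.18, −2.13 and −1.87, as were 82% of all genes. No subunit was higher there (0 of 8 by limma, 0 of them at an unadjusted p under 0.05, against 0.0563% of all genes), and Scn2b was at −0.35 (95% interval −0.96 to 0.27). The change in Scn2b against Scn10a between treatments was −1.49 ± 0.43 (log2, SE; unadjusted p = 0.00135, adjusted p = 0.0960) and did not pass, where 0.352% of all genes did. It passed under 1 of 17 alternatives, without biosample 1 (−1.55, limma adjusted p = 0.0218). Across the alternatives the limma adjusted p reached 0.824.

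Summed over the 9 genes in CPM, subunit mRNA was higher in the pulldown in 8 of 8 biosamples. The sums were 2369 ± 287 CPM in normal input and 3251 ± 390 in normal TRAP (SD, n = 4). In paclitaxel ganglia they were 2241 ± 118 in input and 3628 ± 439 in TRAP. The sums were not recomputed under other scalings. Under pan-neuronal scaling Scn9a and Scn10a changed by 0.06 and −0.14 (log2) in normal ganglia, and by 0.33 and 0.87 in paclitaxel ganglia. Scn10a and Scn11a together made up 32.8, 63.9, 49.2 and 32.8% of alpha subunit mRNA in normal input and 53.3, 54.6, 58.7 and 27.9% in normal TRAP. The share was lower in the pulldown of biosamples 2 and 4, and the groups overlapped. In paclitaxel ganglia it was 49.9, 49.2, 46.7 and 48.7% in input and 68.2, 62.9, 59.6 and 63.3% in TRAP, higher in 4 of 4 with the groups apart. Scn2b took 24.7 to 42.8% of the mRNA of the 3 beta subunits in normal input and 54.7 to 77.1% in normal TRAP. In paclitaxel ganglia it took 25.4 to 34.7% of input and 35.2 to 63.3% of TRAP, so the share was higher in the pulldown of 8 of 8 biosamples.

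**Figure D3:**
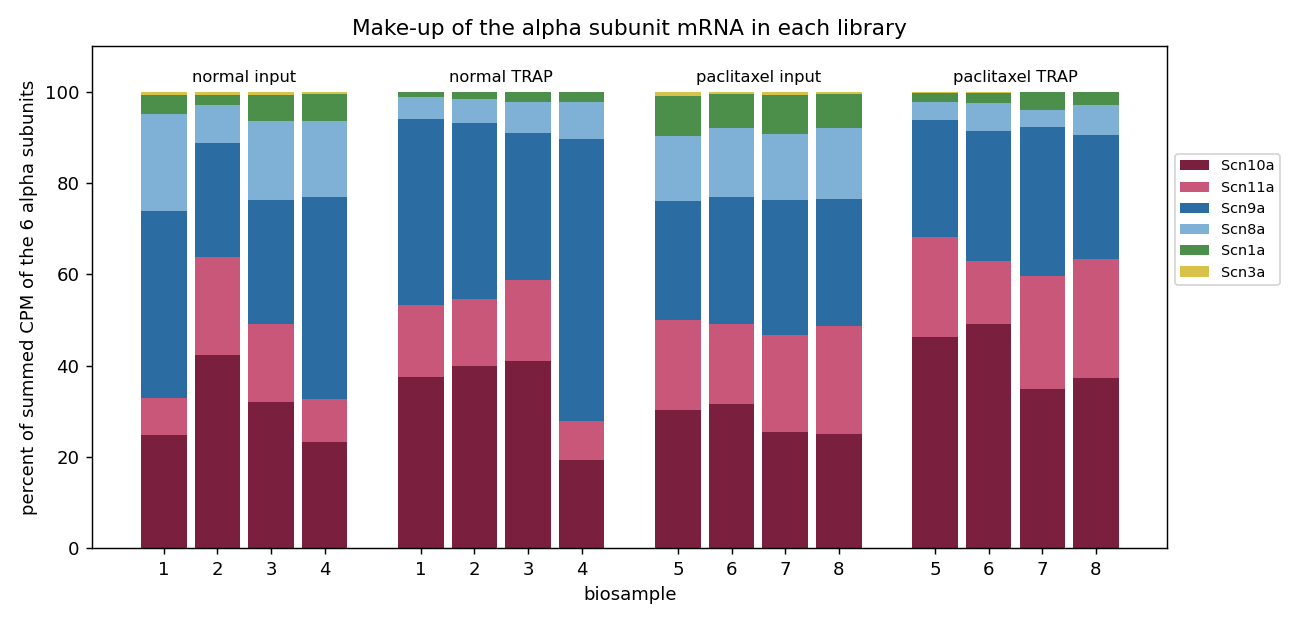
Share of each of the 6 alpha subunit genes in their summed CPM, in percent, per pooled library; each bar is 1 library, grouped by treatment and fraction. Scn10a and Scn11a together make up 59.6 to 68.2% in the 4 paclitaxel pulldowns and 27.9% in the normal pulldown of biosample 4, where Scn9a makes up 61.7%.

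For paclitaxel against normal, no subunit passed in the pulldown (0 of 9; 1.82% of all genes called by limma) or in the input (0 of 9; 1.64% called), and edgeR called 0 in each. The 3 subunits at an unadjusted p under 0.05 in the pulldown were Scn11a, Scn2b and Scn1a, and Scn1a was the only one in the input. Scn11a was 728.6 ± 219 CPM in paclitaxel TRAP and 412 ± 140 in normal TRAP (SD, n = 4), a difference of 0.83 (log2, 95% interval 0.18 to 1.49; limma adjusted p = 0.182) with overlapping groups. Scn2b was lower, at 144 ± 54.7 against 240.1 ± 42.3 CPM, a difference of −0.81 (−1.47 to −0.15; adjusted p = 0.191). The 2 groups of Scn2b overlapped through biosample 5.

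Scn1a was higher in paclitaxel input, at 162 ± 9.94 CPM against 96.6 ± 38.2 in normal input (SD, n = 4), and each of the 4 paclitaxel libraries was above every normal one. It was the only subunit whose input groups were apart, as were those of 11.3% of all genes, and its difference of 0.82 (log2, 95% interval 0.27 to 1.37) did not pass (limma adjusted p = 0.113). Large-fibre markers moved the same way: their sum was 1362 to 2119 CPM in normal and 2186 to 2453 CPM in paclitaxel input, with 1 of the 16 genes called and a median of 0.53 on the log2 scale. Lists of other cells also had positive medians there, at 0.61 for macrophage, 0.59 for skeletal muscle, 0.55 for satellite glia (2 of 14 called) and 0.48 for fibroblast genes, against 0.14 for all genes. Summed fibroblast markers were apart, at 2896 to 5534 CPM in normal and 6108 to 7936 CPM in paclitaxel input. The part of these lists in the result was not tested. In the pulldown Scn1a was 92.8 ± 23.4 against 53.8 ± 21.1 CPM, a difference of 0.83 (0.07 to 1.59; adjusted p = 0.254).

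Scn9a was the one subunit whose pulldown groups were apart between treatments (10.3% of all genes were), with 908 to 1024 CPM after paclitaxel and 1037 to 1810 CPM in normal TRAP. Its difference was −0.36 (log2, 95% interval −0.90 to 0.18; limma adjusted p = 0.515) in the pulldown and −0.35 (−0.83 to 0.13) in the input. Scn10a differed by 0.53 (−0.12 to 1.18) in the pulldown and −0.18 (−0.72 to 0.35) in the input. Scn8a and Scn4b differed by at most 0.17 in size in either fraction, with intervals from −0.81 to 0.82. Scn3a had the largest pulldown estimate of the 9, 1.32 (−0.60 to 3.23), from levels of at most 9.50 CPM. In the input Scn3a differed by −0.05 (−0.56 to 0.46). Scn3b differed by 0.81 (−0.15 to 1.76) in the pulldown and −0.04 (−0.47 to 0.39) in the input. Summed pan-neuronal markers also differed between treatments, at 18121 to 21591 CPM in normal and 13911 to 16251 CPM in paclitaxel input. In the pulldown the sums were 25701 to 46857 against 17328 to 24979 CPM. Over the 16 genes of the list the median change was −0.09 in the input (1 called lower) and 0.33 in the pulldown (1 called higher). The sums therefore do not describe the typical gene of the list. After scaling to these sums, Scn1a (1.22, limma adjusted p = 0.00901) and Scn11a (0.98, adjusted p = 0.0335) passed in the input and Scn11a (1.52, adjusted p = 0.0452) in the pulldown. On that scale the pulldown difference of Scn2b shrank to −0.12 (adjusted p = 0.889), and that of Scn9a turned to 0.33 (adjusted p = 0.650) in the pulldown and 0.06 (adjusted p = 0.878) in the input.

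**Figure D4:**
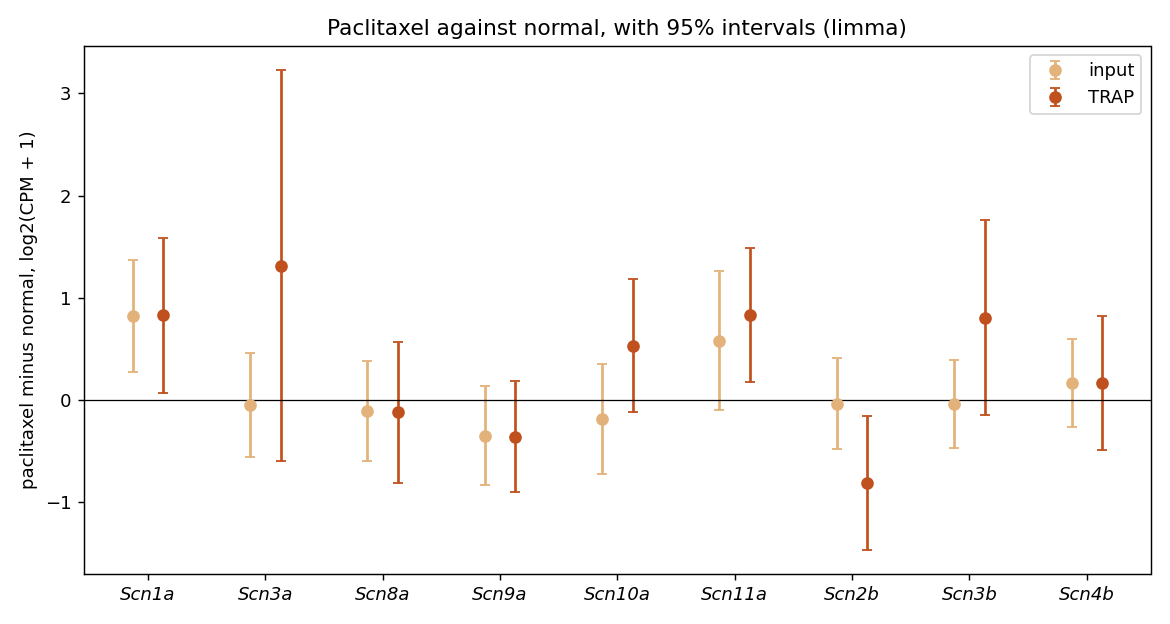
Paclitaxel minus normal in log2(CPM + 1) for each subunit, in input and in TRAP; points are limma estimates from 4 against 4 libraries, and bars are 95% intervals that are not adjusted for multiple testing. The intervals of Scn1a in both fractions, and of Scn11a and Scn2b in TRAP, leave out 0, while no adjusted p was under 0.05.

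Of the other genes of the family, 4 are described here: Scn7a, a channel that senses sodium rather than voltage, the leak channel Nalcn, Scn2a1 and Scn4a. None of these 4 passed for TRAP against input in either treatment (limma adjusted p from 0.0729 to 0.818). Scn7a was the nearest to the threshold, at −0.48 in normal ganglia (adjusted p = 0.0729) and −0.33 in paclitaxel ganglia (adjusted p = 0.216). It measured 415, 258, 334 and 349.5 CPM in normal input and 189.9, 173, 267 and 378 CPM in normal TRAP, lower in 3 of 4 pulldowns and higher in biosample 4, with overlapping groups. None of the 4 was called by limma between paclitaxel and normal in either fraction, and 1 had an unadjusted p under 0.05, Nalcn in the input (−0.60, unadjusted p = 0.0375, adjusted p = 0.233).

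Of 30 genes for sodium channel partners, 4 rose and 11 fell in the normal pulldown, which is 13.3% and 36.7% of them, against 5.09% and 24.7% of all genes. Their median was −0.46 against −0.66 for all genes. Kif5a, a kinesin motor that carries cargo along axons (1.89), Tmem233 (0.70) and the calmodulin gene Calm3 (0.59) were among those that rose. The strongest falls were in Fgf13, a factor that binds the channel's C-terminal tail (−1.97 ± 0.27, limma adjusted p = 1.91e-05), the adhesion protein Cntn1 (−1.67), Pdzd2 (−1.33) and Dpysl2, which encodes CRMP2 (−1.12). In paclitaxel ganglia 5 rose and 7 fell, 16.7% and 23.3% of the partners, against 4.92% and 23% of all genes, so the share that fell was close to that of all genes. The rises included Tmem233 (1.60 ± 0.20, adjusted p = 9.03e-06) and Kif5a (0.97), and the falls were led by Pdzd2 (−1.80), the ubiquitin ligase Nedd4 (−1.30), Fgf14 (−1.23) and Cntn1 (−1.11). Fgf14 was scarce, at 0.86 to 3.37 CPM in paclitaxel input and 0 to 0.66 CPM in paclitaxel TRAP. Its change therefore rests on values near the floor. Between treatments 1 partner was called in the pulldown, Prkaca, the catalytic subunit of protein kinase A. It measured 393, 395, 717 and 133 CPM in normal TRAP and 1271, 1036, 1010.0 and 1175 CPM in paclitaxel TRAP. The groups were apart, with a difference of 1.68 ± 0.39 (log2, SE; limma adjusted p = 0.0462). In the input it measured 318 to 809 CPM in normal and 964 to 1263 CPM in paclitaxel ganglia, also apart, with a difference of 1.13 ± 0.28 (limma adjusted p = 0.0540) that did not pass, and the shift between fractions was 0.55 (adjusted p = 0.468). No partner was called in the input (0 of 30) or for the shift (0 of 30).

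The genes whose centred log2 profile over the 16 pooled libraries was closest to each subunit were sought among 10561 genes, with the root mean square difference as the measure. For Scn10a they were Pgam1 (0.27), Commd2 (0.27) and Acat2 (0.28), where the median gene was at 1.08. For Scn11a they were Timm13 (0.20), Ngfrap1 (0.23) and Ndufb8 (0.25), and for Scn9a Nme1 (0.19), Dnajc2 (0.22) and Tssc4 (0.23). Scn2b was nearest to Clgn (0.28), Scn8a to Sos2 (0.21), Scn1a to Endod1 (0.22), Scn3b to Cops4 (0.22), Scn4b to Atp2a2 (0.22) and Scn3a to Foxd3 (0.45). No subunit had another subunit among its 3 nearest genes. The nearest pair of subunits by this measure was Scn4b and Scn8a (0.43), followed by Scn10a and Scn11a (0.48). The distance from a flat profile was 0.41 for Scn4b, smaller than its distance to Scn8a. For Scn10a and Scn11a it was 0.63 and 0.67. All profiles share the libraries and their depth, so likeness is a description only.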

How the data were processed

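Libraries were made with the Lexogen QuantSeq 3′ kit, per the labels. The submitters' processing notes name FastQC 0.11.5, TopHat2 2.1.1, Bowtie2 2.2.9, Cufflinks 2.2.1 and genome build GRCm38.p4, and the file header names GENCODE vM10. The deposited values are headed TPM but are CPM: all columns have the same sum, and 98.2% to 99.6% of low values come out whole (tolerance 0.0051 CPM) when divided by the worth of 1 read, so whole read counts were recovered for an alternative test. The subsamples of biosample 7 were averaged, giving 16 pooled libraries.

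The filter kept 14214 of 22021 genes, those reaching 1 CPM in 4 or more libraries, tested with limma 3.58.1 (R 4.3.3, trend) on log2(CPM + 1). Fold changes of low genes are therefore understated. Pairing follows the protocol, 1 homogenate per biosample; deviations of same-numbered libraries correlated at 0.053 to 0.376, against at most −0.063 to 0.165 with another number, which was higher than the same number for biosample 1 (0.117). Paclitaxel was compared with normal on the 8 inputs and the 8 pulldowns separately. All p-values are two-sided, and adjusted ones are adjusted over all tested genes. In fits with the block they rest on the spread of TRAP minus input differences between biosamples. For paclitaxel against normal they rest on the spread of levels between biosamples. Alternatives were pseudocounts of 0.1 and 5, other filters and scalings, edgeR 4.0.16 (quasi-likelihood, TMM), no block, each subsample of biosample 7 alone and each biosample left out. After the data were seen, 2 further settings were added: the authors' weights for biosample 7, and removal of the 4 biosamples whose pulldowns detected fewest genes. The limma fit was tested on simulated data. Members, partners, markers and the rule for named genes (all 9 members, other family genes, up to 4 partners per direction and the nearest profiles) were chosen with earlier results of these data known. Floors cover counting error only. Some genes under this rule are not reported here.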

Additional observations from a re-analysis of the deposited data

Results flagged for a closer look

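Scn9a in the normal pulldown of biosample 4, at 1810 CPM, stood far from the other 3 normal pulldowns, which lay between 1037 and 1092 CPM. It was the 1 such library among 36 sets of 4 libraries examined (9 genes in 4 groups), and chance flags about 1 set in 20. The input of biosample 4 was also the highest of its group, at 1038 CPM. Without biosample 4, Scn9a was still called higher in the normal pulldown.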

How the results depend on the processing

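Of 1380 values recomputed for single subunits, 1242 kept their direction and their side of the threshold, 43 lost a call, 25 gained one and 70 changed sign. Of the 70, 69 were called neither as reported nor under the alternative, and the other, a called value, was Scn10a in normal ganglia under pan-neuronal scaling (−0.14). Of the 70, 11 had a reported size over 0.3, among them Scn11a in normal ganglia (0.52, and −0.20 under pan-neuronal scaling), Scn3b there (−0.36, and 0.06 to 0.15 under 3 other scalings and edgeR), and Scn3a without the 4 biosamples with fewest pulldown genes, for paclitaxel against normal in the pulldown (1.32, and −0.30) and for the shift (1.37, and −0.12). For TRAP against input, the number of subunits called lower in normal ganglia (3) was 1 under median-ratio factors, 1 under TMM factors, 0 with edgeR on recovered reads and 5 under pan-neuronal scaling, and 1 to 4 with biosamples left out. In paclitaxel ganglia (2) it was 0, 0, 0 and 4 in the same order, 1 without the replicate block and 1 to 3 with biosamples left out. The number called higher fell from 3 to 1 in normal and from 4 to 1 in paclitaxel ganglia under pan-neuronal scaling, and with biosamples left out it was 2 to 4 in normal and 2 to 4 in paclitaxel ganglia. Under pan-neuronal scaling 1 subunit was higher in the paclitaxel pulldown and 2 in the input, where the main count was 0. With biosamples left out, the count of subunits lower relative to Scn10a for the paclitaxel shift was 0 to 1. Scaling moves all genes: the median change in normal ganglia was −0.66 as reported, −0.32 with median-ratio factors, −0.27 with TMM, 0 with quantile normalization and −1.15 with pan-neuronal scaling. Of all called genes, 17.1% were higher as reported and 67.2% with edgeR in normal ganglia, 17.6% and 59.9% in paclitaxel ganglia, 73% and 40.4% for paclitaxel against normal in the pulldown, and 88.8% and 68.1% in the input. edgeR called 1864 genes against 4233 in normal and 1915 against 3963 in paclitaxel ganglia, 478 against 259 for paclitaxel against normal in the pulldown and 144 against 233 in the input, and 0 against 27 for the shift. The cause was not tested. Without the 4 biosamples with the fewest pulldown genes, 2 subunits were higher and 4 lower in normal ganglia, and 3 and 2 in paclitaxel ganglia. The rise of Scn10a in normal ganglia was also not called without the filter (adjusted p = 0.0729), under quantile normalization (0.104) or without those 4 biosamples (0.0913), and the fall of Scn8a there was not called with subsample 1 of biosample 7 alone (0.0522). Low read counts limit Scn3a, Scn4a and the partner Fgf14 most, since single pulldowns lie at or under 3 reads for them. The subsamples of the biosample 7 pulldown differed for Scn8a (39 and 165 CPM).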
